A study of Mus musculus with 10 samples.

Results

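The Hox genes are the homeobox genes that lie in the 4 Hox clusters of the mouse genome. All protein-coding genes named Hoxa, Hoxb, Hoxc or Hoxd with a position number from 1 to 13 were taken by symbol, with 1 gene of the Hoxa and 1 of the Hoxb cluster not reported here. This gave 37 of the 47069 gene IDs listed for each tumour: 10 in Hoxa, 9 in Hoxb, 9 in Hoxc and 9 in Hoxd. In GRCm38 the Hoxa members lie at chr6:52162417-52260880 on the minus strand. On the plus strand, the Hoxb members lie at chr11:96271457-96368256, the Hoxc members at chr15:102921103-103036852 and the Hoxd members at chr2:74668310-74765142. The choice used names only and no measured value.

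RNA was sequenced from 10 orthografts, tumours grown by injecting mouse prostate cancer cells into an anterior prostate lobe of male CD-1 Nude mice, a strain that lacks T cells but keeps B and NK cells. The cells came from 3 lines, each grown from prostate tumour tissue of donor mice: P1 (donor age 14 months, 3 tumours), CP1 (6 months, 3 tumours) and CP2 (8 months, 4 tumours). The CP1 and CP2 donors carried Ctnnb1pc(ex3)Δ/+, a heterozygous deletion of exon 3 of Ctnnb1 (pc as the labels write it, with no Cre driver named), which removes the part of beta-catenin that marks it for breakdown. The P1 donors are not labelled with this deletion, and the genotypes differ in more than that. Each genotype is thus represented by 1 line (P1) or 2 lines (CP1, CP2), and line, genotype and donor age cannot be told apart. The labels do not tie a library to its own animal, so p-values set the differences between lines against the spread of these libraries, and some of that spread may be technical.

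Hox proteins are transcription factors that give cells along the body axis their positional identity. Genes with low numbers lie at the 3′ end of a cluster and are used towards the head, and genes with high numbers lie at the 5′ end and are used towards the tail, in the limbs and in the urogenital tract. Adult tissues keep much of this positional code. In the male reproductive tract, genes of positions 9 to 13 pattern the vas deferens, seminal vesicle and prostate, and Hoxa10, Hoxa13 and Hoxd13 are needed for normal seminal vesicle and prostate development. Hox proteins bind DNA with partners of the Pbx, Meis and Pknox families, are switched on in the embryo by Cdx factors, Wnt signals and retinoic acid, and are held off by Polycomb and on by trithorax complexes.

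The libraries held 18800912 to 37180721 counts, so that 3 counts in 1 of them equal 0.0923 to 0.154 CPM. Markers of epithelium (6 genes: Epcam, Cdh1, Krt8, Krt18, Krt19, Cldn4) took 0.808% to 1.82% of the counts in P1, 0.0727% to 0.149% in CP1 and 0.0234% to 0.0449% in CP2. None of these genes was at 0 in any line. CP2 replicate 1 carries a title that names CP1, while the labels for its tissue and cells name CP2, where it was kept: over genes, its log2 CPM correlated on average at 0.989 with CP2 tumours, 0.927 with CP1 tumours and 0.862 with P1 tumours.

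Promoter sequence was available from RefSeq (GRCm38.p6) for 22 of the 37 genes. It was not available for Hoxb7, the Hox gene with the largest difference in CP1 versus P1. The 250 bases before the start site are shown for 5 of the 22 genes, chosen from those with differences described below. Hoxa13 and Hoxa11 were higher in both CP lines, and Hoxb8, Hoxd8 and Hoxd13 were lower in both. The windows were searched on both strands for a Tcf/Lef form, through which beta-catenin acts on DNA, spelled CTTTGAA with its variant spelling CTTTGAT. The Hox-Pbx form was TGATNNAT, and the Cdx form was TTTATGG with its variant spelling TTTATTG. The second Tcf/Lef spelling ends in the letters with which the Hox-Pbx form starts, so matches of these 2 forms can overlap. No 2 matches in the windows of the Hox genes shared a base. Capitals mark matches. The windows are chr6:52260881-52261130 and chr6:52245811-52246060 (minus strand), chr11:96281655-96281904, chr2:74704365-74704614 and chr2:74667975-74668224 (plus strand), each printed 5′ to 3′ on the strand of its gene.
Hoxa13: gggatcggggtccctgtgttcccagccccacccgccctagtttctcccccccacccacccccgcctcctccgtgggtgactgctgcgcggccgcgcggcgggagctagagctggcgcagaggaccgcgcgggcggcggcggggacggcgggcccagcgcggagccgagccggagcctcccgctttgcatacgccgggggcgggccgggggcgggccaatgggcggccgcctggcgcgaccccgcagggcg
Hoxa11: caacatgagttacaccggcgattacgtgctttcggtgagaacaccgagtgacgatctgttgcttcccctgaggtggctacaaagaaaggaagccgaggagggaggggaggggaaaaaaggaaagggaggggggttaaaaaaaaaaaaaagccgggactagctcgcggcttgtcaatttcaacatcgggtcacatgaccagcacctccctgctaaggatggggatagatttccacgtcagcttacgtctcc
Hoxb8: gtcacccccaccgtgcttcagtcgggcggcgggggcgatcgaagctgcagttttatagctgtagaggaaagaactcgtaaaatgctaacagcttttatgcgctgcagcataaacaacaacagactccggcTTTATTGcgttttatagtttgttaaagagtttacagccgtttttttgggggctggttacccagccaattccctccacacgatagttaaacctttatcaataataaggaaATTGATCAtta
Hoxd8: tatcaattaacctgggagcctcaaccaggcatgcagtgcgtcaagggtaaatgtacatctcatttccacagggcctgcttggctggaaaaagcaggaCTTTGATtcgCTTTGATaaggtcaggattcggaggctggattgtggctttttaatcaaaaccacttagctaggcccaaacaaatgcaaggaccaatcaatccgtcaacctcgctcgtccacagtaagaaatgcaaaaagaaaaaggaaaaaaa
Hoxd13: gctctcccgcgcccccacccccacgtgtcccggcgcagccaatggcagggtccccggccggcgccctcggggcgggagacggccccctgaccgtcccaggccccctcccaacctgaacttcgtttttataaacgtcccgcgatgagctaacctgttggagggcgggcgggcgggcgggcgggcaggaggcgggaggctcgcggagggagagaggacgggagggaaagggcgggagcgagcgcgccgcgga

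The Hoxd8 window held 2 Tcf/Lef matches, which begin 153 and 143 bases before the start site. Hoxb8 held a Cdx match 120 bases and a Hox-Pbx match 11 bases before its start. Hoxa13, Hoxa11 and Hoxd13 held no match to any of these letters. The 250-base windows of Hoxa13 and Hoxd13 were rich in G and C, at 80.0% and 74.4%, with 35 and 31 CpG, whereas those of Hoxb8 and Hoxd8 were at 44.4%, with 12 and 6 CpG. Over the 24 windows of the 22 genes, the Tcf/Lef form was found in 2 (Hoxd8 and Hoxd12), the Hox-Pbx form in 4 (Hoxa2, Hoxb1, Hoxb8 and 1 of the 2 windows of Hoxd11) and the Cdx form in 2 (Hoxb8 and Hoxd4). Of all 32817 promoter windows of this length, 7.48% held the Tcf/Lef form, 7.69% the Hox-Pbx form and 6.51% the Cdx form.

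Among the 37 genes, P1 tumours used the Hoxa, Hoxb and Hoxd clusters together, while CP1 and CP2 tumours relied on the 5′ end of Hoxa and on Hoxb9. To compare genes, CPM (counts scaled to library size with TMM factors) were divided by the exon length in kb and summed. The sum over all 37 genes was 197 ± 6.67 CPM per kb in P1 (SD, n = 3), 143 ± 12.8 in CP1 (n = 3) and 194 ± 13.9 in CP2 (n = 4), so the total was of like size in P1 and CP2. Its make-up differed. Hoxa genes gave 30.9%, 28.5% and 31.8% of the sum in P1 replicates 1 to 3, 73.7%, 66.8% and 73.2% in CP1 replicates 1 to 3, and 50.5%, 54.4%, 51.8% and 52.7% in CP2 replicates 1 to 4. Hoxb genes gave 57.9% ± 3.68 in P1, 24.8% ± 3.33 in CP1 and 45.9% ± 1.52 in CP2. Hoxd genes gave 11.5% ± 3.73, 3.04% ± 1.30 and 1.60% ± 0.615, and Hoxc genes gave at most 1.05% in any tumour. The Hoxa share did not overlap between any 2 lines. These values describe bulk tissue, in which fewer cells of a type and less RNA per cell cannot be told apart.

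**Figure D1:**
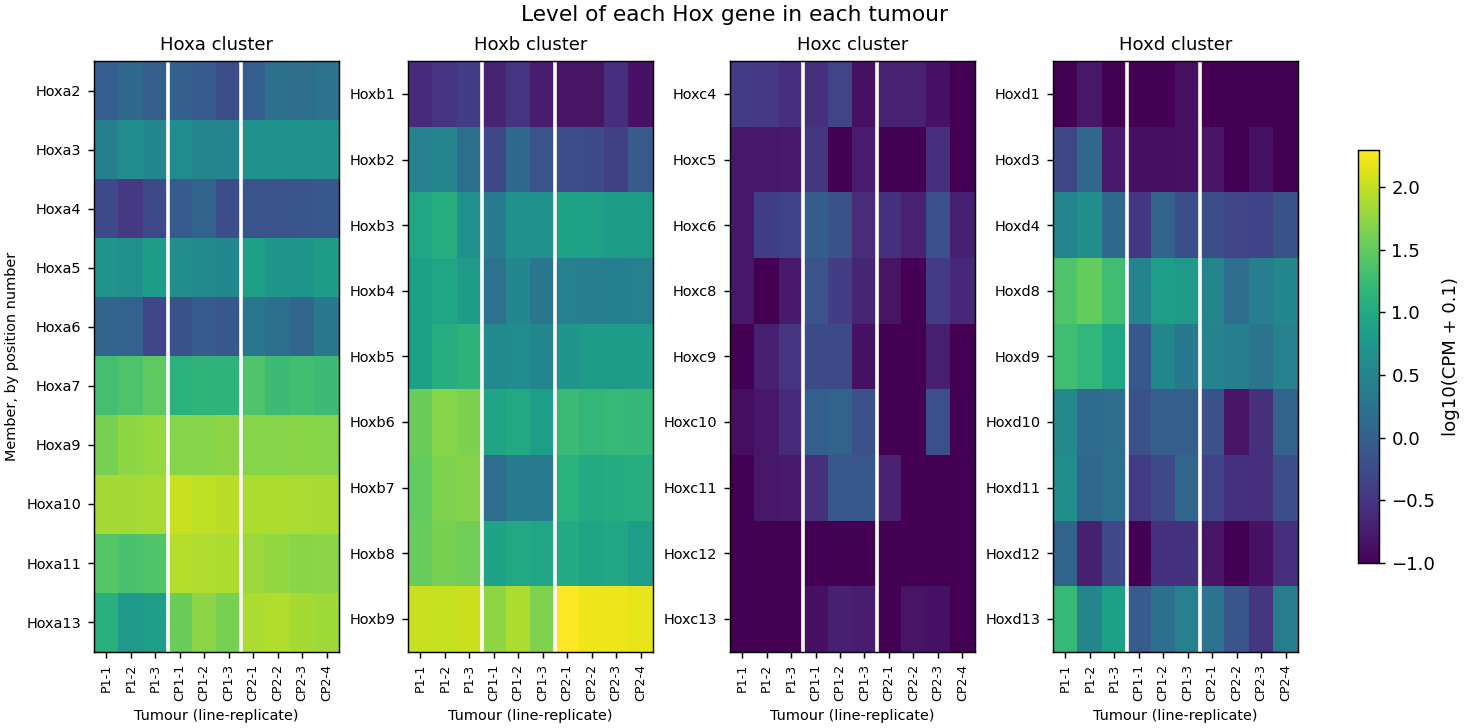
Level of each of the 37 Hox genes (rows, by cluster and position number) in each of the 10 tumours (columns, line and replicate), as log10 of CPM plus 0.1. Hoxa9, Hoxa10, Hoxa11 and Hoxb9 are bright in every tumour, and Hoxa13 is brighter in the CP1 and CP2 tumours. Hoxb4 to Hoxb8, Hoxd8 to Hoxd11 and Hoxd13 are brighter in the 3 P1 tumours, and the Hoxc panel is dark throughout.

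Grouped by position number over the 4 clusters, positions 9 to 13 gave 56.3%, 45.7% and 49.5% of the sum in the P1 tumours, 84.4%, 82.6% and 83.1% in CP1, and 79.6%, 81.1%, 79.6% and 78.8% in CP2. Positions 5 to 8 gave 45.4% ± 5.22 in P1, 13.9% ± 0.595 in CP1 and 17.6% ± 0.956 in CP2. The remaining 2.58% to 4.14% of the mean sums came from positions 1 to 4. Neither the 5 to 8 share nor the 9 to 13 share of P1 tumours overlapped that of a CP tumour. In absolute terms the summed level of positions 5 to 8 was 89.7 ± 13.1 CPM per kb in P1 against 19.9 ± 2.09 in CP1 and 34.3 ± 3.11 in CP2, and that of positions 9 to 13 was 99.4 ± 7.10, 119 ± 10.1 and 155 ± 11.6.

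**Figure D2:**
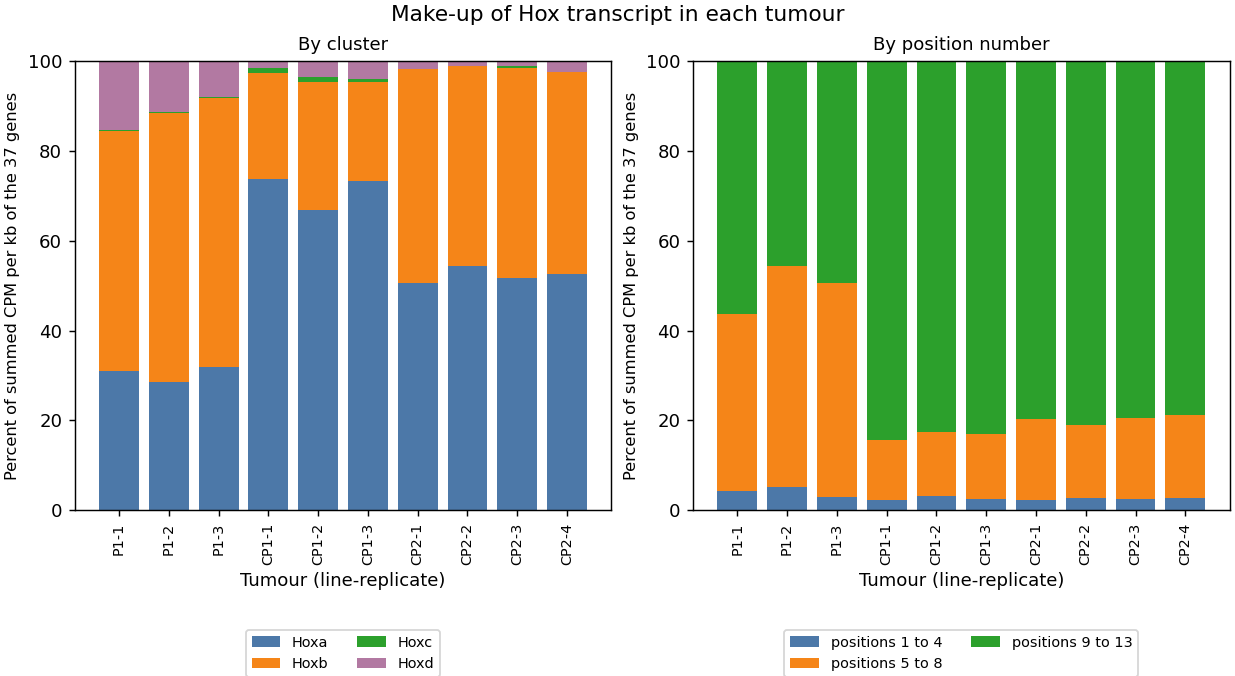
Percent of the summed CPM per kb of the 37 Hox genes that comes from each cluster (left) and from each range of position numbers (right), 1 bar per tumour. The Hoxa share is 28.5% to 31.8% in P1, 66.8% to 73.7% in CP1 and 50.5% to 54.4% in CP2, and the share of positions 9 to 13 is 45.7% to 56.3% in P1 and 78.8% or more in CP1 and CP2.

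The ranking of single genes by CPM per kb of exon showed the same shift. In P1 the order was led by Hoxb9 (41.0 ± 1.64 CPM per kb), whose tumours lay above all others, followed by Hoxb7 (27.3 ± 5.53), Hoxa10 (22.3 ± 0.425) and Hoxb6 (22.2 ± 3.65), whose tumour values overlapped each other. In CP1 the order was Hoxa11 (35.5 ± 1.91), Hoxa10 (30.0 ± 2.33), Hoxb9 (23.5 ± 6.33) and Hoxa13 (17.5 ± 3.54). Hoxa11 stood clear of Hoxa10, while Hoxa10 and Hoxb9, and Hoxb9 and Hoxa13, overlapped. In CP2 Hoxb9 again led with 65.5 ± 7.44, separate from Hoxa13 (30.4 ± 2.81), Hoxa11 (24.7 ± 2.17) and Hoxa10 (23.4 ± 0.763), of which each overlapped the next. Hoxa13, one of the 2 top-ranked genes in CP2, was 13th in P1 at 3.44 ± 1.43, and Hoxb7 went from the second place in P1 to the 12th in CP1 (1.24 ± 0.266) and the 7th in CP2 (7.29 ± 0.630). A mean of at least 1 CPM was reached by 21 of the 37 genes in P1, 17 in CP1 and 19 in CP2, and a mean of at least 10 CPM by 11, 6 and 8.

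Differences between lines were tested on the counts with edgeR's quasi-likelihood test over 17644 genes, and a call needed an adjusted p (Benjamini-Hochberg) below 0.05. Of the 37 Hox genes, 26 had enough counts to be tested: all 10 of Hoxa, 8 of Hoxb, 2 of Hoxc and 6 of Hoxd. A gene kept only through the line in which it is high had to differ, so counts over the tested genes are a description. In CP1 versus P1, 5 were called higher (19.2% of those tested; 22.4% of all tested genes were called higher) and 14 lower (53.8%; 22.4% of all). In CP2 versus P1, 5 were called higher (19.2%; 28.3% of all) and 12 lower (46.2%; 28.4% of all). In CP2 versus CP1, 9 were called higher (34.6%; 21.3% of all) and 3 lower (11.5%; 21.9% of all). The median log2 fold change of the 26 was -0.98, -0.25 and 0.09 in the 3 comparisons, against -0.01, 0.00 and -0.01 over all genes tested. The comparisons share samples: CP1 and CP2 were both set against the same P1 tumours. Side by side, 2 genes were called higher in both CP lines (Hoxa11 and Hoxa13) and 11 lower in both (Hoxb2, Hoxb4 to Hoxb8, Hoxd4, Hoxd8, Hoxd9, Hoxd11 and Hoxd13). The share of all tested genes called alike in both lines was not worked out, so these counts are a description. Hoxb9 was the only gene called in opposite directions, and Hoxa2, Hoxa5, Hoxa9 and Hoxc6 were called in neither.

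**Figure D3:**
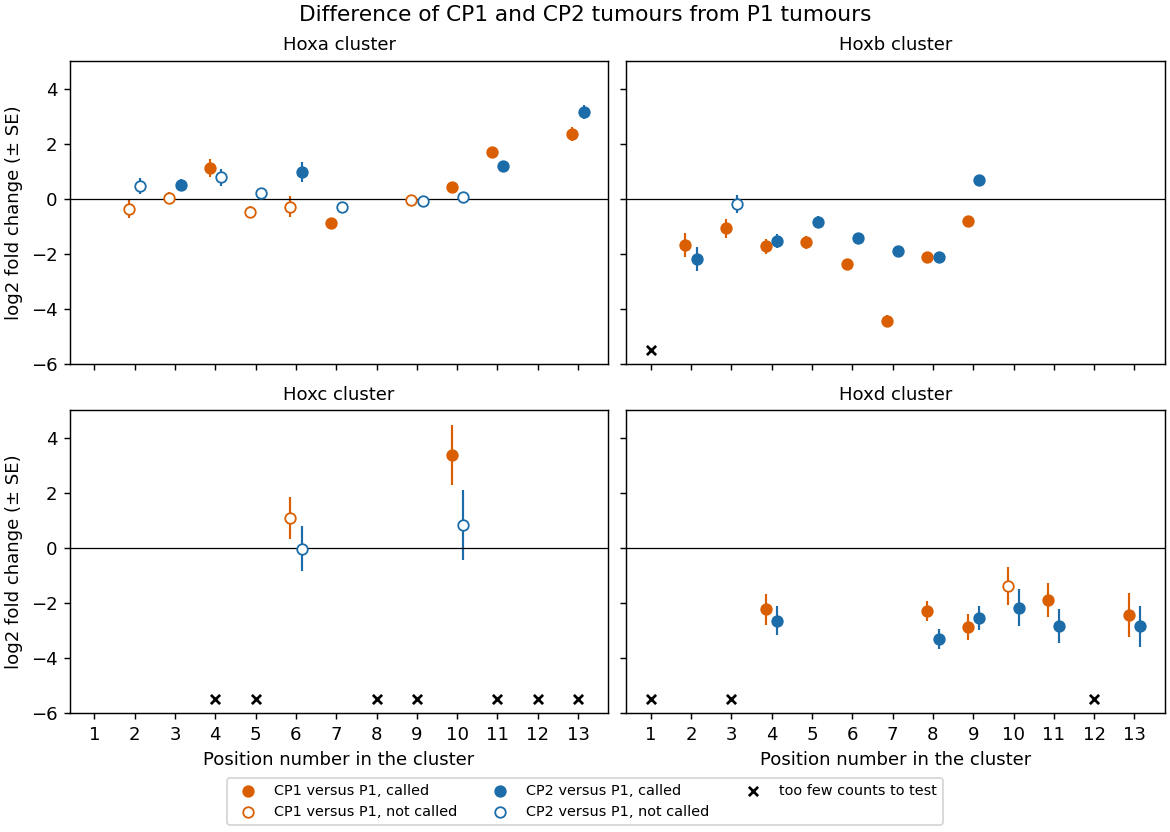
Log2 fold change of CP1 (orange) and CP2 (blue) against P1 by position number in each cluster, with the SE of the fit as bars. Filled points passed an adjusted p below 0.05, open points did not, and crosses at the bottom mark genes with too few counts to test; the Hoxa points climb to 2.35 and 3.14 at position 13, while nearly all Hoxb and Hoxd points lie below 0.

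Hoxa11 and Hoxa13, at the 5′ end of Hoxa, rose in both CP lines. Of the 10 Hoxa genes, 4 were called higher and 1 lower in CP1, and 4 higher and 0 lower in CP2. These are 40.0% and 10.0% in CP1 and 40.0% and 0% in CP2, against 22.4% and 22.4%, and 28.3% and 28.4%, of all tested genes. Hoxa13 (ENSMUSG00000038203, chr6:52257694-52260880), the last gene of the cluster and a regulator of the distal limb and urogenital tract, was at 12.5, 5.89 and 7.08 CPM in the P1 tumours, 35.8, 52.9 and 41.4 in the CP1 tumours and 77.6, 83.6, 71.9 and 67.6 in the CP2 tumours. The 3 lines did not overlap. The difference was 5.10-fold in CP1 (log2 2.35 ± 0.26 SE, adjusted p = 6.881e-05) and 8.82-fold in CP2 (3.14 ± 0.26, 7.751e-06), and CP2 was 1.73-fold above CP1 (0.79 ± 0.23, 0.0211). The last call was lost when CP1 replicate 1 (0.67, adjusted p = 0.0705), CP1 replicate 3 (0.76, 0.0668) or CP2 replicate 2 (0.74, 0.0530) was left out.

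Hoxa11 (ENSMUSG00000038210, chr6:52242106-52245810), which patterns the forearm and the reproductive ducts, was at 27.0, 22.6 and 25.1 CPM in P1, and its CP1 values were 86.1, 80.1 and 77.6 CPM. In CP2 it was at 62.7, 58.2, 52.1 and 52.8 CPM, between the other 2 lines and overlapping neither. It rose 3.27-fold in CP1 (log2 1.71 ± 0.10, adjusted p = 2.274e-06) and 2.27-fold in CP2 (1.18 ± 0.10, 7.59e-06), and was lower in CP2 than in CP1 (-0.53 ± 0.09, 0.0016). Of its exon bases, 35.0% are also exon of the antisense gene Hoxa11os, and the sources used here do not say if strand was used in counting, so this value is uncertain. Hoxa10 (ENSMUSG00000000938, chr6:52231197-52240854), known for its part in the uterus and seminal vesicle, shares no exon base with another gene. It was at 72.2, 72.2 and 74.6 CPM in P1, at 106, 97.1 and 91.2 in CP1 and at 78.5, 77.8, 76.3 and 72.9 in CP2. CP1 stood above both other lines, by 0.43 ± 0.08 on the log2 scale over P1 (adjusted p = 0.0014), and CP2 was 0.36 below it (-0.36 ± 0.07, 0.0029). For CP2 versus P1 the difference was 0.07 ± 0.07 (0.461). Hoxa9, a gene of the lumbar level and of blood progenitors, was level at means of 52.9 ± 9.86, 51.1 ± 1.61 and 50.2 ± 0.627 CPM. Within Hoxa the share of Hoxa13 thus went from 5.76% ± 2.50 (P1) to 17.3% ± 3.16 (CP1) and 29.9% ± 1.63 (CP2) of the cluster's summed CPM per kb, and that of Hoxa11 from 18.2% ± 1.67 to 35.1% ± 1.64 and 24.3% ± 0.826.

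**Figure D4:**
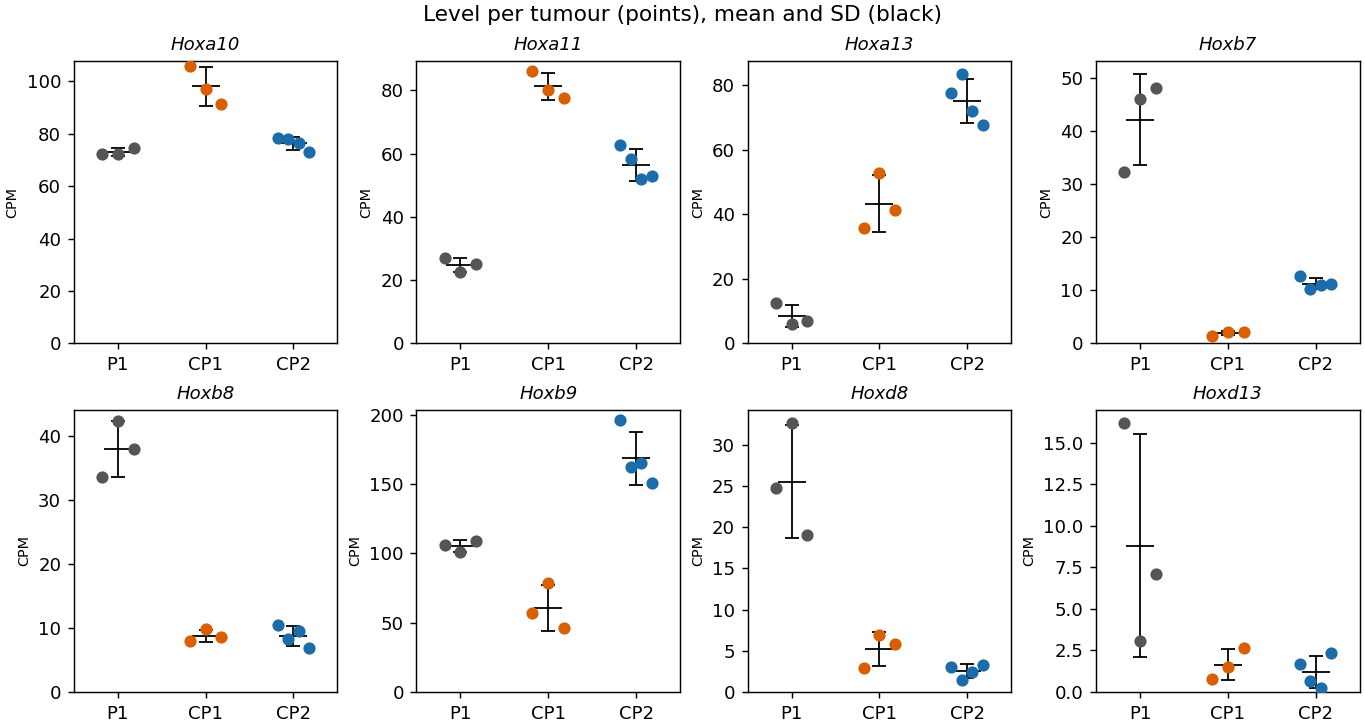
CPM of 8 Hox genes in each tumour (points), with mean and SD (black), on linear axes that start at 0. Hoxa11 and Hoxa13 are higher in all CP tumours than in all P1 tumours, Hoxb7, Hoxb8, Hoxd8 and Hoxd13 are lower, and Hoxb9 is lower in CP1 and higher in CP2.

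Of the 7 Hoxa genes at positions 2 to 7 and 9, none was called in the same direction in both CP lines. Hoxa7, a gene of trunk identity, was at 20.3, 24.8 and 30.3 CPM in P1, 12.6, 14.4 and 13.9 in CP1, and 24.3, 18.4, 20.1 and 18.4 in CP2. It was lower in CP1 (log2 -0.88 ± 0.17, adjusted p = 0.0017), without overlap, and not called in CP2 (-0.31 ± 0.15, 0.113), whose tumours overlapped those of P1. Hoxa3, which patterns the thymus and parathyroid region, was higher in CP2 with an adjusted p of 0.0481 (log2 0.51 ± 0.20), a call lost in 14 of 18 alternative settings. Hoxa6 was at 1.11, 0.997 and 0.401 CPM in P1, 0.565, 0.811 and 0.688 in CP1 and 1.90, 1.52, 1.14 and 2.05 in CP2. All CP2 tumours lay above the P1 tumours (0.97 ± 0.36, 0.0408), but the call did not hold without P1 replicate 2 (0.0616) or 3 (0.102), or without CP1 replicate 3 (0.0547) or CP2 replicate 1 (0.0860), 2 (0.0624) or 4 (0.0966). Hoxa4 was called higher in CP1 from 34 counts in all P1 tumours and 69 in all CP1 tumours (1.11 ± 0.33, 0.0197), and the call was lost without P1 replicate 2 (0.0821) or CP1 replicate 2 (0.0857). Hoxa2 and Hoxa5, regulators of the hindbrain and of the lung, differed from P1 by -0.38 ± 0.32 and -0.49 ± 0.21 in CP1 and by 0.47 ± 0.29 and 0.20 ± 0.19 in CP2, and neither was called.

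The Hoxb cluster was lower in CP1 at each of its 8 tested genes, and most strongly at Hoxb7. In CP2, 6 were lower and 1 higher (75.0% and 12.5%). Of all tested genes, 22.4% were called lower in CP1, and 28.4% lower and 28.3% higher in CP2. Hoxb7 (ENSMUSG00000038721, chr11:96286623-96290162), a trunk-level gene also active in the developing kidney duct, was at 32.3, 46.0 and 48.0 CPM in the P1 tumours, 1.45, 2.17 and 2.15 in the CP1 tumours and 12.6, 10.2, 11.0 and 11.2 in the CP2 tumours. The 3 lines were far apart and did not overlap. Hoxb7 was 21.9-fold lower in CP1 (log2 -4.45 ± 0.22, adjusted p = 8.364e-07) and 3.73-fold lower in CP2 (-1.90 ± 0.17, 1.378e-05), which left CP2 5.86-fold above CP1 (2.55 ± 0.20, 1.49e-05). Its immediate neighbours differed less: in CP1 versus P1, Hoxb6 was at -2.38 ± 0.17 and Hoxb8 at -2.11 ± 0.17 on the log2 scale. Hoxb6 (chr11:96292476-96301569) was at 36.1, 50.4 and 44.4 CPM in P1, 8.37, 9.86 and 6.84 in CP1 and 17.6, 15.4, 16.2 and 15.5 in CP2, so that CP2 again lay between the other lines (-1.43 ± 0.15 against P1, 2.837e-05; 0.95 ± 0.15 against CP1, 0.0009173). Hoxb8 (chr11:96281905-96285315), known from microglia and blood progenitors, did not share this order: it was at 33.6, 42.3 and 38.0 CPM in P1, and its means were 8.78 ± 0.909 in CP1 and 8.76 ± 1.56 in CP2 (adjusted p = 0.988 between them).

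Hoxb9 (ENSMUSG00000020875, chr11:96271457-96276595), which acts in the rib cage and the mammary gland, was the highest of the 37 Hox genes in P1 and CP2 and moved in opposite directions in the 2 CP lines. It was at 106, 101 and 109 CPM in the P1 tumours, 56.8, 78.4 and 46.4 in the CP1 tumours and 196, 162, 165 and 151 in the CP2 tumours. Each CP1 tumour lay below and each CP2 tumour above the P1 tumours. The log2 fold change was -0.80 ± 0.17 in CP1 (adjusted p = 0.0038), 0.68 ± 0.16 in CP2 (0.0053) and 1.48 ± 0.17 between CP2 and CP1 (0.0001159). With P1 replicates 1 and 2 left out together, the CP2 call was lost (0.60, 0.0942). Its share of the summed CPM per kb of the 9 Hoxb genes reported here was 36.1% ± 4.25 in P1, 65.5% ± 3.49 in CP1 and 73.2% ± 1.07 in CP2, so it made up most of that sum in both CP lines. Positions 5 to 8 of Hoxb went from 59.0% ± 4.56 to 28.8% ± 2.95 and 23.6% ± 0.966.

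Towards the 3′ end of Hoxb, Hoxb4, a gene used in blood stem cells, was lower in both CP lines (log2 -1.73 ± 0.27 in CP1, adjusted p = 0.000512, and -1.54 ± 0.24 in CP2, 0.0004305), with 7.53 ± 1.21, 2.27 ± 0.881 and 2.58 ± 0.0672 CPM in P1, CP1 and CP2. Hoxb5, known from the enteric nervous system, was lower as well (-1.59 ± 0.23, 0.000322; -0.85 ± 0.21, 0.0056). Hoxb2, a hindbrain gene, fell in both lines (-1.68 ± 0.45, 0.0123; -2.20 ± 0.43, 0.0017), from a mean of 2.45 CPM in P1. With P1 replicates 1 and 2 left out together, both calls of Hoxb2 were lost (-0.97, 0.248; -1.49, 0.0697). Hoxb3 was lower in CP1 (-1.08 ± 0.35, 0.0277) but not called in CP2 (-0.20 ± 0.32, 0.614), and the CP1 call was lost without P1 replicate 1 (0.0563), P1 replicate 2 (0.103) or CP1 replicate 1 (0.0687). Of the exon bases of Hoxb3 and Hoxb2, 52.9% and 27.3% also belong to the antisense gene Hoxb3os, so both are uncertain. Hoxb1, the most 3′ gene and a marker of a single hindbrain segment, had 20, 12 and 7 counts in all tumours of P1, CP1 and CP2 and was not tested.

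The Hoxc cluster was close to silent in each tumour. Its 9 genes summed to 0.493, 0.841 and 1.13 CPM in P1, 3.42, 3.54 and 1.78 CPM in CP1 and 0.462, 0.245, 1.73 and 0.233 CPM in CP2, so the 3 CP1 tumours were the highest 3. Hoxc10, a gene of the lumbar level and hindlimb, was the one Hoxc gene called: it had 1, 2 and 4 counts in P1, 25, 33 and 14 in CP1 and 0, 0, 12 and 0 in CP2 (log2 3.38 ± 1.08 in CP1, adjusted p = 0.0277). Without the CP1 tumours it would not pass the filter on low counts. The call was lost without P1 replicate 1 (0.0885) or 2 (0.0882), or CP1 replicate 1 (0.0507) or 2 (0.0693). Hoxc6 had 22, 45 and 20 counts in all tumours of P1, CP1 and CP2 and was not called. Of the untested genes, Hoxc11 had 4, 43 and 2 counts and Hoxc9 9, 28 and 2, which makes CP1 21.4-fold (95% exact interval 5.56 to 182) and 13.9-fold (3.51 to 120) higher than CP2 in summed, scaled counts. These intervals cover counting error only. Hoxc12 had 0 counts in all 10 tumours, which allows up to 0.0923 to 0.154 CPM per library, and Hoxc4, Hoxc5, Hoxc8 and Hoxc13 had at most 17 counts in any tumour. In CP2 replicate 3, Hoxc5, Hoxc6, Hoxc8 and Hoxc10 had 4, 12, 6 and 12 counts, against at most 4 for each of them in the other CP2 tumours.

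Of the 6 Hoxd genes tested, 5 (83.3%) were lower in CP1 and 6 (100%) in CP2, against 22.4% and 28.4% of all tested genes. Hoxd8 (ENSMUSG00000027102, chr2:74704615-74707933), a trunk-level gene and the highest of the cluster per kb in P1 and CP1, was at 24.8, 32.7 and 19.1 CPM in P1, 2.86, 6.94 and 5.83 in CP1 and 3.08, 1.42, 2.46 and 3.26 in CP2. All CP values lay well below those of P1, and the difference was 4.89-fold in CP1 (log2 -2.29 ± 0.38, adjusted p = 0.0007698) and 9.99-fold in CP2 (-3.32 ± 0.36, 3.822e-05). CP1 and CP2 overlapped, and the call of CP2 below CP1 (-1.03 ± 0.35, 0.0388) did not hold without CP1 replicate 2 (-0.76, 0.150) or 3 (-0.94, 0.102), or without CP2 replicate 1 (0.0518), 2 (0.0848) or 3 (0.0814). Hoxd9 (ENSMUSG00000043342, chr2:74697727-74700208), used in the hindlimb and lumbar region, was at 19.6, 15.0 and 8.97 CPM in P1, 0.706, 3.18 and 2.06 in CP1 and 2.93, 2.45, 1.78 and 2.74 in CP2. It was lower in both lines without overlap (-2.87 ± 0.49, 0.0009357; -2.55 ± 0.44, 0.0007121). Hoxd4 (chr2:74711929-74729160), a gene of the neck vertebrae, was at 3.08, 4.33 and 1.17 CPM in P1 and at means of 0.604 ± 0.401 and 0.457 ± 0.0933 in CP1 and CP2 (-2.23 ± 0.55, 0.0079; -2.64 ± 0.52, 0.0018). Hoxd4 shares 52.3% of its exon bases with other genes, among them Hoxd3, so its value is uncertain. With P1 replicates 1 and 2 left out together, both of its calls were lost (-0.96, 0.272; -1.37, 0.105).

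The most 5′ Hoxd genes varied more between P1 tumours. Hoxd13 (ENSMUSG00000001819, chr2:74668310-74671599), needed for digits and for the seminal vesicle and prostate, was at 16.2, 3.08 and 7.11 CPM in P1, 0.777, 1.52 and 2.63 in CP1 and 1.69, 0.638, 0.228 and 2.33 in CP2. Every P1 tumour lay above every CP tumour. The log2 fold change was -2.42 ± 0.80 in CP1 (adjusted p = 0.0319) and -2.85 ± 0.75 in CP2 (0.0084), and the CP1 call was lost without P1 replicate 1 (-1.65, 0.122), CP1 replicate 1 (-2.09, 0.0885) or CP1 replicate 2 (-2.37, 0.0846). Hoxd11 (chr2:74679557-74687016), a forearm and kidney gene, was at 4.12, 1.18 and 1.50 CPM in P1, 0.282, 0.454 and 1.13 in CP1 and 0.360, 0.196, 0.182 and 0.512 in CP2 (-1.88 ± 0.62, 0.0309; -2.84 ± 0.61, 0.0029). Its CP1 call did not hold without P1 replicate 1 (-1.13, 0.139), CP1 replicate 1 (0.0909) or CP1 replicate 2 (0.0969). Hoxd10, a lumbar motor neuron gene, was lower in CP2 alone among the calls (-2.17 ± 0.68, 0.0194; CP1 -1.39 ± 0.69, 0.130), and that call was lost without P1 replicate 1 (-1.57, 0.0872) or CP2 replicate 3 (-1.91, 0.0517). Whether the Hoxd10 effect differs between the lines was covered by CP2 versus CP1, which did not pass (-0.78 ± 0.71, 0.395). Hoxd12 and Hoxd3 had 49 and 51 counts in all P1 tumours and were not tested. Hoxd3 had 3 counts in all CP1 and 2 in all CP2 tumours, a ratio of 15.5 (5.01 to 77.6) and 23.1 (6.07 to 196) in favour of P1, but 36 of its 51 P1 counts came from replicate 2 and 62.8% of its exon bases are shared with other genes. Hoxd1 had 2, 1 and 0 counts.

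The summed share of seminal vesicle and secretory prostate markers was highest in P1 replicate 1, the tumour with the highest Hoxd10, Hoxd11, Hoxd12 and Hoxd13. These 12 markers took 15.2%, 6.87% and 2.03% of all counts in the P1 tumours, and at most 0.0571% in CP1 and 0.170% in CP2, with none at 0 in any line. Single markers did not all share this order: Pbsn was at 388, 119 and 1393 CPM in P1 replicates 1 to 3 and Pate4 at 6352, 7669 and 754, while Svs1 was at 17569, 14.4 and 1049. Svs1, Svs3a, Svs3b, Svs4, Svs6, Sva and Spink1 were highest in replicate 1 and lowest in replicate 2, as were Hoxd10 to Hoxd13. Svs2 and Svs5 followed the order of the summed share, and Tgm4 that of Pbsn. Between P1 replicates 2 and 3, the summed share and these Hoxd genes differed in order. Replicate 2 had the larger summed share but the lower Hoxd10 (1.31 against 1.39 CPM, from 42 and 38 counts), Hoxd11 (1.18 against 1.50), Hoxd12 (0.0935 against 0.438) and Hoxd13 (3.08 against 7.11). Of the 12 markers, 10 were lower in CP1 and 12 in CP2. Over all tested genes, 22.4% were called higher and 22.4% lower in CP1, and 28.3% and 28.4% in CP2. The 8 smooth muscle markers took 0.256%, 0.125% and 0.0959% in P1, 0.0543%, 0.310% and 0.466% in CP1 and 0.0338% to 0.0600% in CP2 (0 of 8 called in CP1; 7 lower and 1 higher in CP2; none at 0). The 10 fibroblast markers took 0.504% to 0.864%, 1.50% to 2.34% and 0.863% to 1.07% (3 higher and 1 lower in CP1, 5 higher and 4 lower in CP2; none at 0). Epithelial markers, as given above, were lower in CP1 at 5 of 6 genes and in CP2 at 6 of 6. The part of these tissues in the Hox differences was not tested. With P1 replicates 1 and 2 left out, the P1 tumours with the larger summed share, Hoxd8 and Hoxd9 stayed lower in both CP lines. The calls of Hoxd13 (log2 -2.14) and Hoxd11 (-1.30) in CP1 and of Hoxd10 (-1.62) in CP2 were lost. This setting assumes that the lone P1 tumour varies like the others. It does not remove the tissue, because P1 replicate 3 still had 2.03% of its counts in the seminal vesicle and secretory markers, against at most 0.170% in a CP tumour. The calls of Hoxa11 and Hoxa13 as higher and of Hoxb4 to Hoxb8 as lower in both CP lines held under all 18 alternatives.

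CP2 versus CP1 compared the 2 lines with the Ctnnb1 deletion. Of the 9 genes called higher in CP2, 6 lie at positions 5 to 8 (Hoxa5, Hoxa6, Hoxa7, Hoxb5, Hoxb6 and Hoxb7), and the others are Hoxa2, Hoxa13 and Hoxb9. These 6 are 66.7% of the 9 genes tested at positions 5 to 8. At positions 1 to 4 the share was 14.3%, at positions 9 to 13 it was 20.0%, and over all tested genes it was 21.3%. Hoxa5 was higher by 0.69 ± 0.20 (adjusted p = 0.0182), Hoxa6 by 1.25 ± 0.37 (0.0201) and Hoxa7 by 0.58 ± 0.16 (0.0147). Hoxa2 had 0.953, 0.779 and 0.526 CPM in CP1 against 0.873, 1.57, 1.41 and 1.63 in CP2 (0.86 ± 0.30, 0.0422), with 1 CP2 tumour inside the CP1 range, and its call was lost in 10 of 18 alternatives. Lower in CP2 were Hoxa10, Hoxa11 and Hoxd8. Only Hoxb6, Hoxb7, Hoxb9, Hoxa10 and Hoxa11 kept their call under all 18 alternatives in this comparison. The calls of Hoxa5, Hoxa6, Hoxa7 and Hoxb5 fell away when a single CP tumour was left out, with adjusted p of 0.0502 to 0.0666: CP1 replicate 1 (Hoxa6, Hoxa7), CP1 replicate 2 (Hoxa5), CP1 replicate 3 (Hoxa5, Hoxa6, Hoxb5) or CP2 replicate 4 (Hoxa6). Markers of other tissues also differed between these lines. The 7 urothelial markers took 0.00604%, 0.138% and 0.0551% of the counts in the CP1 tumours, at most 0.00122% in CP2 and 0.0159% to 0.0379% in P1. All 7 were lower in CP2 than in CP1, and 6 were higher and 1 (Krt20) lower in CP1 than in P1. Most of the P1 share came from Krt20, at 134, 248 and 353 CPM in the P1 tumours. The next highest marker there, Upk1b, was at 28.8, 14.1 and 20.5 CPM. Of the smooth muscle markers, 7 of 8 were lower in CP2 than in CP1, against 21.9% of all tested genes. Of the 7 lymphocyte and NK cell markers tested, 4 were higher, against 21.3% of all tested genes. The part of these tissues in the Hox differences was not tested.

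Genes inside and next to the clusters were examined by position. The clusters hold 33 annotated non-coding genes between the outermost genes given here, of which 8 could be tested. The antisense gene Hoxa11os rose with Hoxa11, from 944, 896 and 947 counts in P1 to 2270, 2060 and 1639 in CP1 and 1093, 1317, 1138 and 1146 in CP2 (30.5 ± 3.54, 71.1 ± 7.83 and 56.5 ± 5.69 CPM; log2 1.22 ± 0.12, adjusted p = 3.974e-05, and 0.89 ± 0.12, 0.0001429). Between Hoxa11 and Hoxa13, the unclassified transcript 9530018H14Rik rose as well (1.96 ± 0.29, 0.0003763; 2.47 ± 0.28, 5.287e-05). In Hoxb, the antisense gene Hoxb5os was lower in both CP lines (-1.60 ± 0.39, 0.0070; -0.92 ± 0.35, 0.0447), and in Hoxd, Hoxd3os1 was lower in CP2 (-3.32 ± 0.64, 0.0015; CP1 -1.29 ± 0.60, 0.111). Hoxa11os shares 800 exon bases with Hoxa11 and Hoxb5os shares 100 with Hoxb5, and Hoxd3os1 overlaps exons of Hoxd3 and Hoxd4. The use of strand in counting is not given, so the values of these antisense genes are uncertain and may not be separate from those of the Hox genes. The hairpin genes of the miRNAs in these clusters had 0 counts in all tumours in this gene-level table.

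Beyond Hoxa13 lies Evx1 (ENSMUSG00000005503, chr6:52313498-52318378), a homeobox gene of the posterior embryo. It had 8, 0 and 2 counts in P1, 1, 30 and 3 in CP1 and 532, 614, 577 and 612 in CP2, so only the CP2 tumours held it at a substantial level (28.1 ± 1.63 CPM). Its log2 fold change was 7.95 ± 0.90 in CP2 versus P1 (adjusted p = 5.314e-05) and 6.14 ± 0.79 in CP2 versus CP1 (0.000239). Without the CP2 tumours Evx1 would not pass the filter on low counts, so these p-values add no support to the counts. Hibadh, an enzyme of valine breakdown and the next gene out, was higher in CP1 (0.50 ± 0.15, 0.0217) and in CP2 (0.78 ± 0.15, 0.0012). At the 5′ side of Hoxd, Evx2, the relative of Evx1, was lower in both (-2.88 ± 1.01, 0.0399; -2.48 ± 0.92, 0.0408). It had 56, 5 and 16 counts in P1, 3 in each CP1 tumour and 2, 1, 0 and 9 in CP2, so that most of its P1 counts came from replicate 1 and CP2 overlapped P1. Lnpk, a gene of the endoplasmic reticulum beyond it, was higher in both (1.25 ± 0.12 and 1.17 ± 0.12; 2.809e-05 and 2.106e-05). Over the 24 nearest protein-coding neighbours, 6 were higher and 3 lower in CP1, and 6 higher and 6 lower in CP2, with medians of -0.06 and -0.09. These are 25.0% and 12.5% of them in CP1 and 25.0% and 25.0% in CP2, against 22.4% and 22.4%, and 28.3% and 28.4%, of all tested genes.

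**Figure D5:**
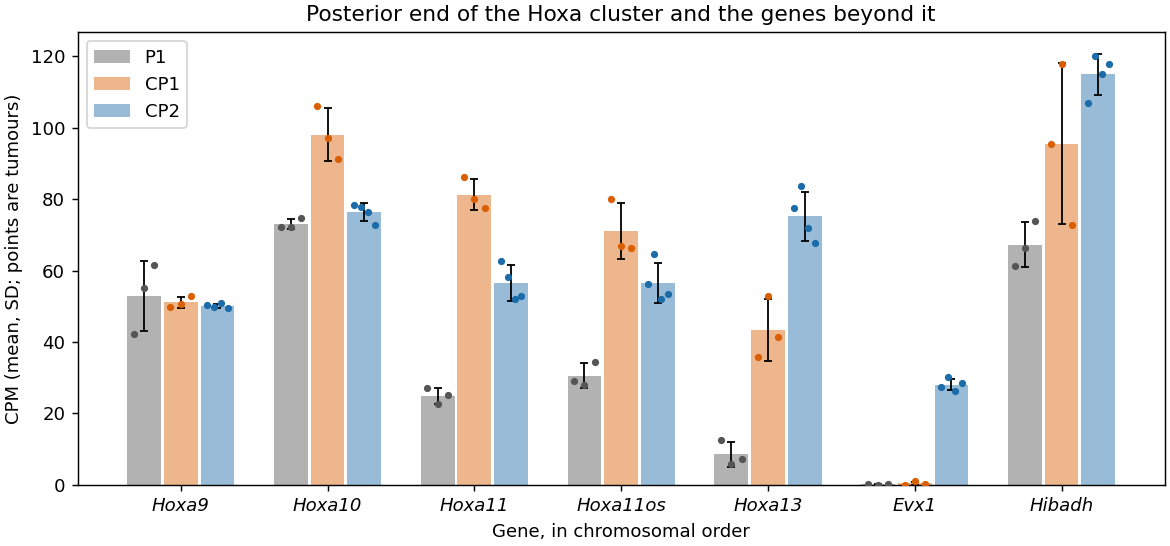
CPM (bars, mean; lines, SD; points, tumours) of the genes at the 5′ end of the Hoxa cluster and of the 2 protein-coding genes beyond it, in chromosomal order, for P1, CP1 and CP2. Hoxa9 is level over the lines, Hoxa11, Hoxa11os and Hoxa13 are higher in CP1 and CP2, and Evx1 is seen at 28.1 CPM in CP2 with means of at most 0.377 CPM in P1 and CP1.

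Partners and regulators of Hox proteins were read from 4 lists. Their counts stand beside those over all tested genes, of which 22.4% were called higher and 22.4% lower in CP1, 28.3% and 28.4% in CP2, and 21.3% and 21.9% in CP2 versus CP1. Of 9 Hox cofactors, 4 were higher and 1 lower in CP1, and 2 higher and 1 lower in CP2 (22.2% and 11.1%). Pbx3, a partner that sharpens Hox binding, rose in both (13.2 ± 2.18, 37.2 ± 3.75 and 31.3 ± 1.63 CPM; log2 1.50 ± 0.13 and 1.25 ± 0.13). Pbx4 rose in CP1 (2.78 ± 0.39) from 0.367 to 2.52 CPM. Meis1, a partner of Hoxa9 in blood progenitors, was lower in CP2 than in CP1 (-1.55 ± 0.17, adjusted p = 0.0001), with 12.4 ± 3.13, 34.6 ± 3.12 and 11.8 ± 1.33 CPM in P1, CP1 and CP2. Meis3 was lower in CP1 (-0.54 ± 0.18), while in CP2 Pknox1 was higher (0.42 ± 0.09) and Pknox2 lower (-2.28 ± 0.47).

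Of 16 genes for Cdx factors and retinoic acid supply, 13 were tested, with 7 higher and 5 lower in CP1, and 6 higher and 4 lower in CP2. Cdx2, an activator of middle and posterior Hox genes that is otherwise known from the intestine, was far higher in P1: 18.7 ± 4.99 CPM against 0.0856 ± 0.0311 in CP1 and 0.134 ± 0.0894 in CP2 (log2 -7.72 ± 0.45, adjusted p = 1.963e-06, and -7.09 ± 0.39, 8.028e-07). Without the P1 tumours Cdx2 would not pass the filter on low counts, so its p-values add no support to these levels. Cdx1 had 0.838 ± 0.191 CPM in P1 and 0 counts in all 7 CP tumours, and Cdx4 had 0 counts throughout. The 6 intestinal markers, which include Cdx1 and Cdx2, took 0.113% to 0.225% of the counts in P1 and at most 0.00203% in any CP tumour, and all 6 were lower in both lines. Their part in the Hox differences was not tested. Gdf11, a signal that sets the onset of posterior Hox genes in the trunk, rose in CP1 (2.81 ± 0.26) and CP2 (2.97 ± 0.25), from 8.58 ± 3.37 to 60.3 ± 12.3 and 67.4 ± 6.47 CPM. Of the enzymes that make retinoic acid, Aldh1a1 rose in both CP lines (2.65 ± 0.43 and 3.88 ± 0.44), while Aldh1a2 and Aldh1a3 took opposite directions in them. Aldh1a2 was at 125 ± 34.5, 482 ± 230 and 8.04 ± 2.69 CPM in P1, CP1 and CP2, and Aldh1a3 at 182 ± 63.9, 12.2 ± 5.07 and 323 ± 25.3. The differences between CP2 and CP1 were -5.90 ± 0.38 for Aldh1a2 (5.93e-06) and 4.72 ± 0.36 for Aldh1a3 (1.299e-05). Of the enzymes that break retinoic acid down, Cyp26b1 rose in CP1 (1.32 ± 0.33) and in CP2 (3.26 ± 0.34), and Cyp26a1 was lower in both (-2.40 ± 0.54, 0.0049; -2.79 ± 0.51, 0.0011), from 3.27 ± 1.03 CPM in P1. The receptor gene Rarb was lower in CP2 than in CP1 (-1.79 ± 0.37, 0.0033).

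Of 10 trithorax and MLL complex genes, 1 was higher and 2 were lower in CP1, and 3 were higher and 2 lower in CP2 (30.0% and 20.0%). The methyltransferases Kmt2a and Kmt2b were not called (-0.17 ± 0.15 and -0.15 ± 0.11 in CP1, 0.10 ± 0.14 and -0.02 ± 0.10 in CP2). The core subunits Dpy30 (-0.66 ± 0.16 and -0.89 ± 0.15) and Wdr5 (-0.24 ± 0.07 and -0.29 ± 0.07) were lower in both lines, and the H3K27 demethylase gene Kdm6b was higher in CP1 (0.53 ± 0.13). Psip1 (0.64 ± 0.13) and Kdm6a (0.43 ± 0.14) were higher in CP2. Of 14 Polycomb genes, 2 were higher and 0 lower in CP1, and 6 were higher and 1 lower in CP2, against 28.3% of all tested genes called higher in CP2. Suz12, a core subunit of the complex that methylates H3K27, was at 62.2 ± 5.39, 81.7 ± 5.68 and 129 ± 4.54 CPM in P1, CP1 and CP2 (0.39 ± 0.09, 0.0049; 1.05 ± 0.09, 6.673e-06), and Phc1 at 25.0 ± 2.23, 30.3 ± 4.35 and 72.2 ± 5.56 CPM (CP2 1.53 ± 0.12, 5.13e-06). Rnf2 (0.78 ± 0.16 and 0.62 ± 0.15) was higher in both lines, and Eed was lower in CP2 (-0.32 ± 0.11). Between the CP lines, 3 cofactors were higher and 3 lower in CP2, 5 Polycomb genes were higher and 0 lower, and the other 2 lists gave 3 higher and 2 lower, and 2 higher and 1 lower.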

How the data were processed

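Gene-level RNA-seq counts of 10 tumours were analysed. The authors deposited raw read counts per Ensembl gene, as whole numbers in 1 table per tumour. HTSeq 0.6.0, TopHat2 2.1.0, Bowtie2 2.2.6.0, FastQC 0.11.4, DESeq2 1.14.1 and R 3.2.3 are named, in no given order, per the submitters' processing notes, as is the build GRCm38.p3. The annotation, the parameters and the use of strand are not given in the sources used here. Of 47069 gene IDs, 46574 matched GENCODE M21 (GRCm38), which gave symbols, coordinates and exon lengths (the union of a gene's exons), and 495 did not.

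Counts were tested with edgeR 4.0.16 (R 4.3.3, limma 3.58.1) in a single quasi-likelihood fit of all tumours with a mean per line, TMM scaling and filterByExpr (minimum count 10, minimum total 15), which left 17644 genes. Adjusted p-values are Benjamini-Hochberg over all of them, called below 0.05, and come from this test throughout. Each SE was obtained as log2 fold change over root F. CPM are mean ± SD and use TMM-scaled library sizes. For genes with 1 to 3 counts in a line, ratios of summed counts carry exact 95% binomial intervals, and intervals and floors (3 counts) cover counting error only. The code was tested on simulated data. Alternatives were DESeq2 1.42.0, other scalings, no filter, fewer lines, and tumours left out.

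Values per tumour are given, in replicate order, for the 6 called Hox genes with the largest log2 fold change in each comparison (mean of at least 1 CPM in a line compared) and the 4 highest per kb in each line. For each list the rule took up to 2 called genes per direction, of which most are named. Hoxa7, Hoxb8 and Hoxc10, the neighbouring genes, and Kmt2a, Kmt2b, Cdx1 and Cdx4 lie outside this rule and were added once their values were known. The Hox genes, lists and tests were chosen with earlier results of these data known. Some items, among them part of the genotypes and some genes of the clusters and lists, are not reported here. Replicate numbers follow the order of the samples and pair nothing.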

Additional observations from a re-analysis of the deposited data

Results flagged for a closer look

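Hoxc10 in CP2 replicate 3 stood far from the other CP2 tumours: 0.547 CPM (12 counts) against 0 counts in the other 3. With the other 3 at 0, any count in the fourth tumour would stand apart in this way, so the gap carries no weight of its own. Of the 26 Hox genes examined, no other had such a gap, and chance alone gives about 1 in 20. Hoxb9 differed between the CP lines by 1.48 on the log2 scale (CP2 above CP1, adjusted p = 0.0001159), with calls in opposite directions against P1. Both CP lines were set against the same P1 tumours.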

How the results depend on the processing

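All 18 alternatives kept the direction of each of the 48 calls made for Hox genes over the 3 comparisons, and 28 calls held under each of them: 12 of 19 in CP1 versus P1, 11 of 17 in CP2 versus P1 and 5 of 12 in CP2 versus CP1. Scaling by library totals without TMM moved the median log2 fold change of all genes by up to 0.15, against 0.04 or less under the other settings, and the calls above are read relative to that shift. Of the 108 counts of called genes under an alternative, 93 were within 1.5 times those reported. With P1 tumours 1 and 2 left out, 3 Hox genes were higher in CP1 versus P1 and 3 in CP2 versus P1, in place of 5 in both. With CP1 tumours 2 and 3 left out, 3 were higher in CP2 versus P1 in place of 5, and 5 in CP2 versus CP1 in place of 9. These settings assume that the lone tumour varies like the other groups, and they test fewer samples. With no filter on low counts, 3 were higher in CP2 versus P1 in place of 5, and 5 were lower in CP2 versus CP1 in place of 3, from 36 Hox genes tested.

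With each tumour left out in turn, 3 to 6 Hox genes were higher and 11 to 14 lower in CP1 versus P1, 3 to 5 higher and 12 to 13 lower in CP2 versus P1, and 4 to 10 higher and 2 to 5 lower in CP2 versus CP1. The counts that moved by more than 1.5 times came without CP1 replicate 2 (3 higher in CP1 versus P1), without CP1 replicate 3 (4 higher in CP2 versus CP1), without P1 replicate 3, CP1 replicate 3 or CP2 replicate 1, 2 or 4 (3 higher in CP2 versus P1), and without P1 replicate 1 or 3 (5 lower in CP2 versus CP1 in both cases); the cause was not tested. No paired analysis was possible because the labels give no replicate numbers that pair tumours. Depth limits the Hoxc genes and Hoxb1, Hoxd1, Hoxd3 and Hoxd12, most of which lie near the level of 3 counts.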
